A study of Mus musculus with 6 samples.

Results

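The Tnf, Lta and Ltb locus is the stretch of mouse chromosome 17 that holds the genes of 3 linked cytokines of the tumour necrosis factor family. Its members were chosen by position as the H3K27ac peaks of each genotype that overlap chr17:35380000-35465000 (build mm39), an interval of 85 kb. Of the 25666 peaks of Bmal1KO 8 were members, of the 24477 peaks of Mfp2KO 12 were, and of the 29276 peaks of WT 10 were, or 30 of 79419 in all. The interval places Tnf near 35418000-35421000, which identifies the peaks that lie over Tnf. Annotation of build mm39 was not used here, so no other peak is assigned to a gene.

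RAW264.7 cells, a macrophage-like line from the mouse, were profiled by ChIP-seq for histone H3 acetylated at lysine 27 (H3K27ac), which sits on promoters and enhancers in use. Bmal1KO cells were knocked out for Bmal1, whose product drives transcription of clock genes together with CLOCK. Mfp2KO cells were knocked out for Mfp2, an enzyme of peroxisomal β-oxidation, and the third genotype was wild type (WT). All were grown in the same serum medium, and the labels name no inflammatory stimulus and do not say whether a knockout is a single clone. Each genotype has 1 ChIP library and 1 input library, so no difference between genotypes was tested, and the intervals given are 95% intervals that cover counting error only. The ChIP libraries hold 12.5 M tags in Bmal1KO, 15.8 M in Mfp2KO and 15.8 M in WT, and the share of them in peaks was 37.4%, 57.2% and 38.7% in that order of genotypes. Tag values are per 10 M tags of the library, and this scaling does not correct for the higher share in peaks of Mfp2KO.

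Tnf encodes tumour necrosis factor, an inflammatory cytokine that macrophages make early in a response to microbial products and that signals through the receptors Tnfrsf1a and Tnfrsf1b. Lta encodes lymphotoxin alpha, which is secreted by lymphocytes and binds the same receptors. Ltb encodes lymphotoxin beta, a membrane protein that anchors lymphotoxin alpha at the cell surface, where the complex binds Ltbr and guides lymphoid organ development. Transcription of Tnf is driven by NF-kB in macrophages, and the Tnf promoter of unstimulated macrophages is known to be poised for rapid induction. In the RefSeq gene table, which is of build GRCm38.p6 and is used here for neighbours only, the protein-coding genes in map order are Aif1, Lst1, Ltb, Tnf, Lta, Nfkbil1, Atp6v1g2 and Ddx39b.

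The 250 bases before the start of each gene are shown because transcription of the 3 genes is set off from there. They are RefSeq sequences of build GRCm38.p6, a build whose coordinates cannot be set beside the mm39 peak positions. Capitals mark matches on either strand to a kappaB motif (GGGNNNNNCC, bound by NF-kB), an ETS motif (GGAAGT, the core bound by PU.1 and its relatives), a TATA motif (TATAAA) or a GC box (GGGCGG).
Tnf, chr17:35202008-35202257 (GRCm38.p6), minus strand: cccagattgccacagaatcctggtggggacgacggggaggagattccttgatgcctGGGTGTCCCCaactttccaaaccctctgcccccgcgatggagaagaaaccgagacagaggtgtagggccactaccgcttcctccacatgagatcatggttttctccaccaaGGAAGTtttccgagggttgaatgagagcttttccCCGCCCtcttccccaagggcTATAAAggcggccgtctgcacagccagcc
Lta, chr17:35205352-35205601 (GRCm38.p6), minus strand: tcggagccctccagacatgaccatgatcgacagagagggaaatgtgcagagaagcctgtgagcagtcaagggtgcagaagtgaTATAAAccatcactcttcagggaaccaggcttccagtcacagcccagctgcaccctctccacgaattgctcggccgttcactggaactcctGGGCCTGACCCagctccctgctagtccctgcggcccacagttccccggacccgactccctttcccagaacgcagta
Ltb, chr17:35194257-35194506 (GRCm38.p6), plus strand: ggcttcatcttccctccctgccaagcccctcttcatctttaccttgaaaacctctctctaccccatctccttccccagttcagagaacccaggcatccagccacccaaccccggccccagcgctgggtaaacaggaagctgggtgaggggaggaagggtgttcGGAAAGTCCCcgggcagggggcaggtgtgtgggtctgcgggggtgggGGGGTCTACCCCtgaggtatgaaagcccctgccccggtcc

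All 3 promoters matched the kappaB motif, which 45.8% of 32851 promoters of the same length also held. In Ltb 2 separate stretches matched it, 1 of them through overlapping matches. The TATA motif stood 29 to 24 bases before the start of Tnf and 167 to 162 bases before that of Lta, and 12.4% of all promoters held it. In Tnf alone of the 3 were the ETS motif (19.7% of all promoters) and the GC box (32.7%). The E-box CACGTG, the motif bound by BMAL1 with its partner CLOCK, was in none of these 3 windows and in 6.02% of all promoters. The AP-1 motif TGANTCA (6.75%) and the CRE motif TGACGTCA (1.55%) were also in none of them. A match is a run of letters and not a shown binding site, and the absence of one applies to these 250 bases only.

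The locus was among the more strongly acetylated stretches in each genotype. Its peaks held 3461 tags in Bmal1KO (3359 to 3566), 6069 in Mfp2KO (5948 to 6192) and 4058 in WT (3959 to 4159). In steps of 5 kb along chromosomes 1 to 19 and X, 21 non-overlapping stretches of 85 kb held more tags in Bmal1KO, 15 in Mfp2KO and 4 in WT. The interval was drawn around the locus, whereas the other stretches were placed only in steps, so these ranks are a description. Peaks covered 38.0 kb in Bmal1KO, 38.2 kb in Mfp2KO and 47.9 kb in WT, or 44.7%, 44.9% and 56.4% of the interval. Tags per kb of called sequence, pooled over the peaks of the locus, were 91.2, 159 and 84.7 in these genotypes. Medians over the single peaks of each list were 26.1, 38.2 and 23.9, which is an unlike measure. Taken singly, peaks of the locus ranged in tags per kb from percentile 51.3 to 98.3 of the list in Bmal1KO. The range was 8.44 to 99.0 in Mfp2KO and 14.8 to 98.8 in WT. Over the whole locus the tags of Bmal1KO were 0.853 times those of WT (0.821 to 0.887), and the tags of Mfp2KO were 1.50 times those of WT (1.45 to 1.54).

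These tag ratios were near the medians of single regions with at least 20 tags, and below those of regions with at least 100 tags. Peaks of the 3 lists were joined into regions where they overlapped. Over regions called in both lists with at least 20 tags in either, the median tag ratio was 0.835 for Bmal1KO over WT (16272 regions) and 1.39 for Mfp2KO over WT (15983 regions). With at least 100 tags in either, which every region of the locus called in all genotypes had, the medians were 0.983 and 1.62. On chromosome 17 alone, with at least 20 tags, they were 0.880 (759 regions) and 1.56 (759 regions). Relative to the share of tags in peaks, the locus stood at 0.884 in Bmal1KO and at 1.01 in Mfp2KO relative to WT. Called length was 0.792 and 0.797 times that of WT, and the median length ratios of all regions were 0.808 and 0.789. Windows of 85 kb with at least 5 WT peaks are closer to the locus in size. They were chosen by WT peaks, with any peak in the knockout enough, and this choice can lower their ratios to WT. The percentiles of the locus among them are thus a description only. Their median tag ratio was 0.783 in Bmal1KO over WT (1977 windows) and 1.25 in Mfp2KO over WT (1961 windows). The locus was at percentiles 58.0 and 62.7 of them. Their median length ratios were 0.644 and 0.648, below those of the locus, which was at percentiles 74.4 and 68.2.

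**Figure D1:**
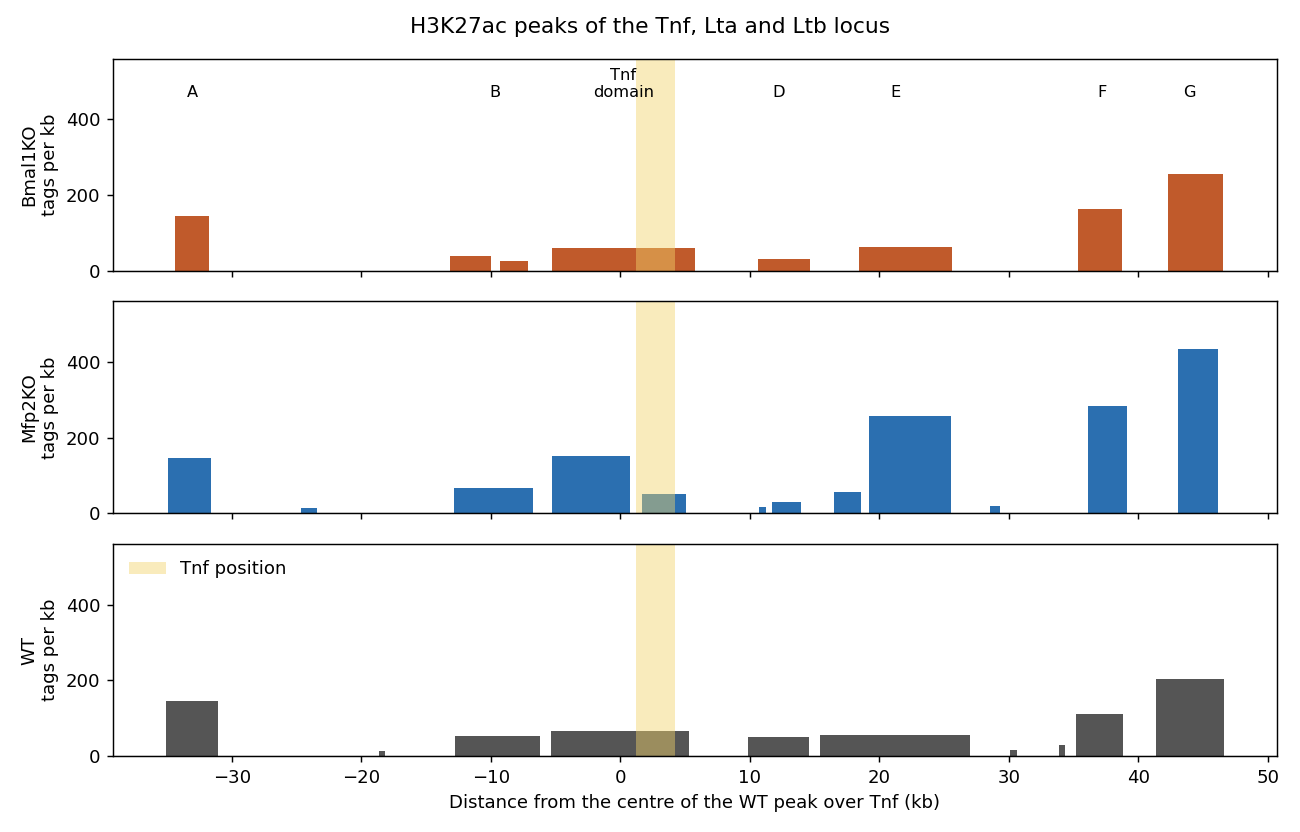
H3K27ac peaks of the locus in Bmal1KO, Mfp2KO and WT (top to bottom); each bar spans a peak, with distance in kb from the centre of the WT peak over Tnf on the x axis and tags per kb on the y axis, and the shaded band is the position given for Tnf. The Tnf domain is 1 undivided peak in Bmal1KO and WT and 2 peaks in Mfp2KO, and regions A to G are those called in every genotype.

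The peaks fell into 12 regions, of which 7 were called in every genotype. In map order these are named A, B, the Tnf domain, D, E, F and G. The other 5 were short and weak. Bmal1KO had no peak of its own. In Mfp2KO alone there were peaks at 35392137-35393335 (17.7 tags over 1198 bp) and 35445318-35446118 (15.5 tags over 800 bp). In WT alone there were peaks of 500 bp at 35398106-35398606 (7.28 tags), 35446882-35447382 (8.55 tags) and 35450611-35451111 (14.2 tags). So 3 of 10 WT peaks had no Bmal1KO peak, where 38.9% of all WT peaks had none, and the same 3 had no Mfp2KO peak, where 41.4% of all WT peaks had none. Conversely 0 of 8 Bmal1KO peaks lacked a WT peak, against 23.6% of that list, and 2 of 12 Mfp2KO peaks did, against 25.4%. Between the knockouts, 0 of 8 Bmal1KO peaks lacked an Mfp2KO peak (34.6% of the list), and 2 of 12 Mfp2KO peaks lacked a Bmal1KO peak (32.1% of the list). All 5 lay within 4.7-fold to 6.63-fold over input, above the limit of 4-fold that the authors set. The list medians were higher, at 8.46-fold in Mfp2KO and 7.12-fold in WT. The 5 also held few tags, so a peak missing from a list is not the absence of the mark.

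The Tnf domain, the region that overlaps the position given for Tnf, was a long acetylated stretch in all 3 genotypes. It extends beyond that position on both sides, so its tags are not those of Tnf alone. In Bmal1KO it was 1 peak of 11070 bp (35411470-35422540) with 661 tags (617 to 708). In Mfp2KO it was called as 2 peaks with 1095 tags together (1045 to 1149), and in WT as 1 peak of 10663 bp (35411439-35422102) with 722.5 tags (681 to 766). The whole position given for Tnf lay inside the peak in Bmal1KO and in WT, and 84.8% of its 3 kb did in Mfp2KO. The tags of Bmal1KO were 0.915 times those of WT, and the interval of 0.836 to 1.002 includes equality. The tags of Mfp2KO were 1.52 times those of WT (1.41 to 1.64), close to the median ratios of all regions given above. Of the Mfp2KO tags, 918.9 lay in a peak that ends below the position given for Tnf, and 176.5 in the peak over it. In rank among all regions called in both lists, the domain's tag ratio to WT was at percentile 55.3 in Bmal1KO and 54.3 in Mfp2KO. Enrichment over the input of the same genotype was 11.68-fold in Bmal1KO, 14.4-fold in Mfp2KO and 8.13-fold in WT. Input per kb of the domain was 5.11 in Bmal1KO, 8.10 in Mfp2KO and 8.33 in WT, on the scale of the ChIP tags. Bmal1KO thus had a higher fold than WT with fewer tags and less input. With input subtracted, the tag ratio of the domain to WT was 0.954 in Bmal1KO and 1.61 in Mfp2KO.

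In Mfp2KO the domain was divided at the lower edge of the position given for Tnf. The first peak (35411492-35417530) held 918.9 tags over 6038 bp, or 152 per kb. The second (35418456-35421807), which covers most of the Tnf position, held 176.5 tags over 3351 bp, or 52.7 per kb, and 926 bp between them were not called. For comparison, the density of the undivided domain was 59.7 tags per kb in Bmal1KO and 67.8 in WT. How tags were spread within those undivided peaks is not given by a peak list, so the densities at Tnf alone cannot be compared between genotypes. Division of a long WT peak was common: of 325 WT peaks of 10 kb or more, 78.2% met 2 or more Mfp2KO peaks and 81.2% met 2 or more Bmal1KO peaks.

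In Bmal1KO nearly the whole extent of the WT domain was called. Bmal1KO peaks covered 99.7% of the WT domain, the highest value among those 325 WT peaks, whose median was 65.6%. Mfp2KO peaks covered 88.1% of it, where 39 of the 325 were covered more and the median was 61.1%. The minimum of 10 kb was chosen with the data known and lies just under the length of the domain. With a minimum of 5 kb, 41 of 2150 WT peaks were covered more than the Tnf domain in Bmal1KO and 321 in Mfp2KO. The ratio of called length to WT was 1.04 in Bmal1KO, at percentile 81.9 of all regions, and 0.881 in Mfp2KO, at percentile 63.7.

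**Figure D2:**
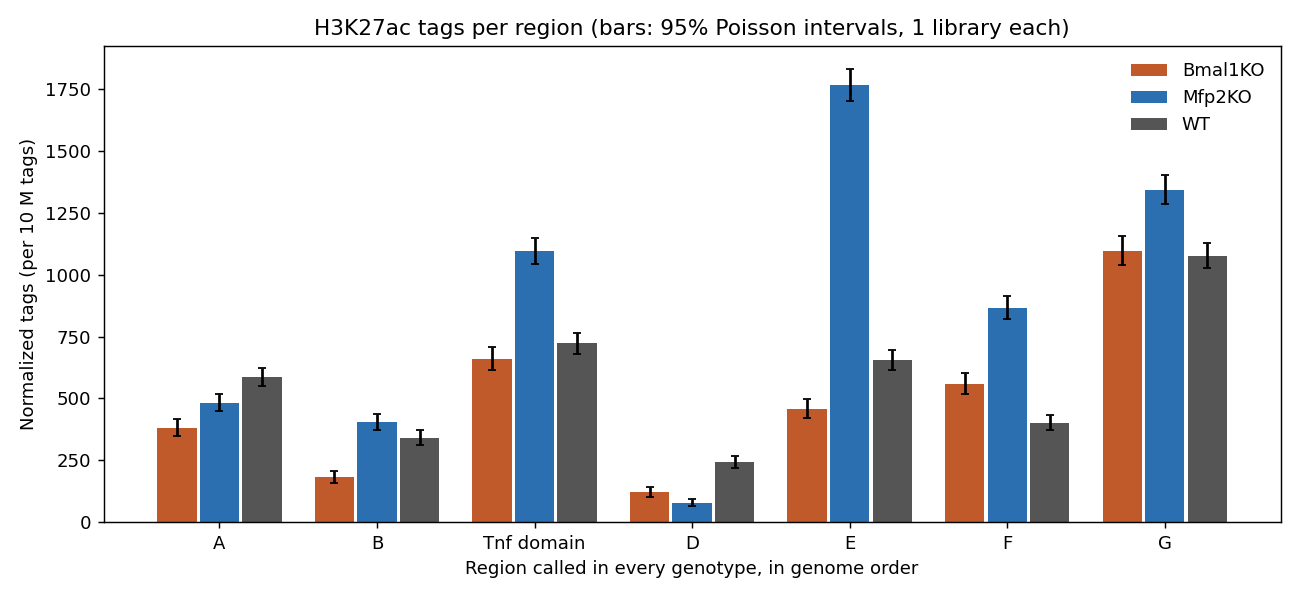
Normalized tags (per 10 M tags of the library, linear axis from 0) in the 7 regions called in every genotype, with bars for Bmal1KO, Mfp2KO and WT from left to right and error bars for 95% Poisson intervals. At E the bars stand at 458 tags in Bmal1KO, 1766 in Mfp2KO and 655 in WT, and at A and D both knockouts stand below WT.

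On the side of lower coordinates, region B (35403600-35410555) was called close to the Tnf domain, with gaps of 1807 bp in Bmal1KO, 1439 bp in Mfp2KO and 884 bp in WT. Bmal1KO had 2 peaks there, at 35403600-35406779 with 122.9 tags and at 35407495-35409663 with 58.2 tags. Mfp2KO had 1 peak of 6129 bp with 404 tags, and WT 1 peak of 6528 bp with 341 tags. The tag ratio to WT was 0.531 in Bmal1KO (0.452 to 0.621) and 1.18 in Mfp2KO (1.05 to 1.33). Among all regions these were at percentiles 25.6 and 43.0. Region B was thus lower in Bmal1KO than in WT beyond counting error, and its density of 33.9 tags per kb in Bmal1KO, against 52.3 in WT, was lower as well.

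Region A (35381686-35385705), near the lower edge of the interval, had a like density in all genotypes. It held 382.5 tags over 2650 bp in Bmal1KO, 483 tags over 3284 bp in Mfp2KO and 586 tags over 4019 bp in WT. Per kb these were 144 tags in Bmal1KO, 147 in Mfp2KO and 146 in WT, so that the difference in tags followed the called length. Input at region A differed: enrichment over input was 17.62-fold in Bmal1KO, 8.78-fold in Mfp2KO and 22.62-fold in WT, with input of 8.19, 16.7 and 6.45 per kb on the scale of the ChIP tags. With input subtracted, the tag ratio of A to WT was 0.644 in Bmal1KO and 0.764 in Mfp2KO, against 0.653 and 0.824 with input left in.

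On the side of higher coordinates, region D (35426656-35431390) had fewer tags in both knockouts than in WT, as region A did, and was less dense in both. It held 121.7 tags in Bmal1KO (103 to 143), 77.9 tags in 2 peaks in Mfp2KO (64.8 to 93.0) and 243 tags in WT (219 to 269), and these intervals of the knockouts lie below that of WT. Density was 30.6 tags per kb in Bmal1KO, 28.6 in Mfp2KO and 51.7 in WT. The tag ratio to WT was 0.5004 in Bmal1KO (0.413 to 0.607) and 0.320 in Mfp2KO (0.259 to 0.394). The tag ratio was at percentile 23.1 of all regions in Bmal1KO and 10.6 in Mfp2KO, and the ratio of tags per kb at percentile 3.81 and 3.22. Both ratios are over the same WT library, and region D is the lowest of 7 regions, singled out after its values were seen.

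Region E (35432196-35443800), the next region up, differed most between the knockouts. Bmal1KO had 1 peak of 7209 bp with 458 tags. Mfp2KO had 2 peaks, of which 35435946-35442339 held 1644.5 tags at 257 per kb and 31.69-fold over input, and 35433251-35435359 held 121 tags at 4.57-fold over input. WT had 1 peak of 11604 bp with 655 tags. The summed tags of Mfp2KO were 2.70 times those of WT (2.51 to 2.90), whereas those of Bmal1KO were 0.700 times those of WT (0.630 to 0.775). Among all regions these ratios were at percentile 80.5 in Mfp2KO and 39.2 in Bmal1KO. Bmal1KO over Mfp2KO was 0.260 (0.237 to 0.284), at percentile 10.6 of 14644 regions called in both knockouts. By tags the Bmal1KO peak ranked 2316th in its list, the stronger Mfp2KO peak 203rd and the WT peak 949th. Region E also took a larger share of the tags of the locus in Mfp2KO, 29.1%, than the 13.2% in Bmal1KO and the 16.1% in WT. Input per kb in E was 5.38 in Bmal1KO, 9.23 in Mfp2KO and 6.09 in WT, and with input subtracted the ratio of E to WT was 0.718 in Bmal1KO and 2.89 in Mfp2KO.

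Regions F and G, at the upper edge of the interval, had the highest tags per kb of the 7 regions in Bmal1KO and Mfp2KO. Region F (35451976-35455924) held 559 tags in Bmal1KO (519 to 602), 865 in Mfp2KO (820 to 912) and 403 in WT (372 to 435). It was the only region of the 7 whose counting interval lay above equality in Bmal1KO, with a tag ratio to WT of 1.39 (1.25 to 1.55). That ratio was at percentile 79.4 of all regions. In Mfp2KO its ratio to WT was 2.15 (1.95 to 2.36), at percentile 71.1 of all regions. Region G (35458122-35463375) was the strongest peak of the locus in Bmal1KO and WT. It held 1097 tags in Bmal1KO (1041 to 1157), 1344 in Mfp2KO (1287 to 1403) and 1077 in WT (1026 to 1130). Its density was 255, 435 and 205 tags per kb in these genotypes, with 38.26-fold, 34.45-fold and 26.67-fold enrichment over input. The Bmal1KO value of G was 1.02 times that of WT (0.949 to 1.09).

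**Figure D3:**
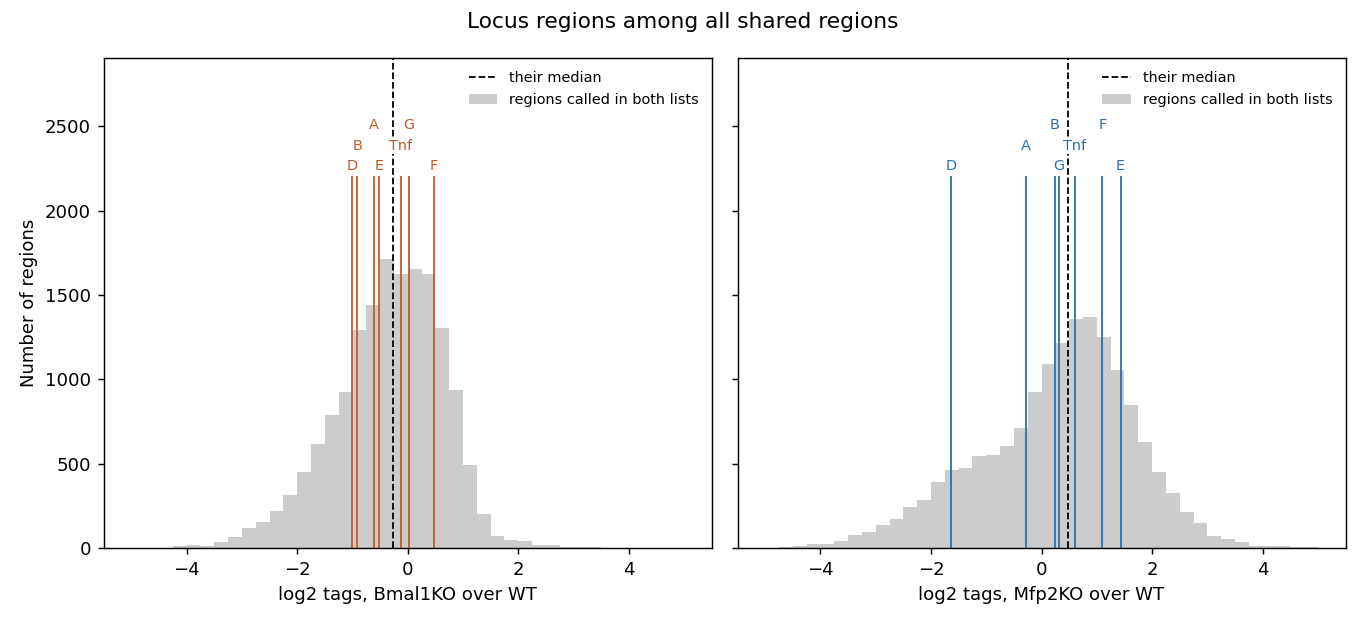
Number of regions (y axis) by log2 ratio of tags, Bmal1KO over WT (left) and Mfp2KO over WT (right), for all regions called in both lists with at least 20 tags in either; coloured lines mark the 7 regions of the locus and the dashed line the median of all regions. The Tnf domain is at -0.13 in Bmal1KO and 0.60 in Mfp2KO, close to the dashed line in each, and D is the lowest of the 7 in both.

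Over the 7 regions, no ratio to WT passed 2-fold in Bmal1KO in either direction. Among all regions 5.64% were over 2-fold higher and 23% over 2-fold lower in Bmal1KO. In Mfp2KO regions E and F were over 2-fold higher than in WT, or 2 of 7, where 32.2% of all regions were, and region D was over 2-fold lower, where 18.8% were. With all ratios divided by their median, 11.6% of all regions were over 2-fold higher and 17.2% over 2-fold lower in Bmal1KO than in WT. In Mfp2KO 18.3% were higher and 25.7% lower than in WT. On that scale none of the 7 regions passed 2-fold in Bmal1KO. In Mfp2KO only D did, over 2-fold lower, with E at 1.93 and F at 1.54. The median tag ratio of the 7 was 0.700 in Bmal1KO and 1.25 in Mfp2KO, both below the medians of all regions. Relative to the median of all regions with at least 20 tags, the ratios to WT were 1.10 in Bmal1KO and 1.09 in Mfp2KO for the Tnf domain. They were 0.599 and 0.230 for D, and 0.838 and 1.93 for E. After this centring A, B and D were below 1 in both knockouts and F was above 1 in both, with 1.66 in Bmal1KO and 1.54 in Mfp2KO. For regions with at least 100 tags the medians were 0.983 in Bmal1KO and 1.62 in Mfp2KO. The uncentred ratios of the Tnf domain, 0.915 and 1.52, lie below these. Between the knockouts, Bmal1KO was over 2-fold lower than Mfp2KO in B and E, where 29.5% of all regions were. It was over 2-fold higher in none, where 7.04% were. After division by the median, E alone was over 2-fold lower (0.374), where 17.5% of all regions were. D alone was then over 2-fold higher (2.25), where 12.6% were. Region D alone had more tags in Bmal1KO than in Mfp2KO, at a ratio of 1.56 (1.23 to 2.002).

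**Figure D4:**
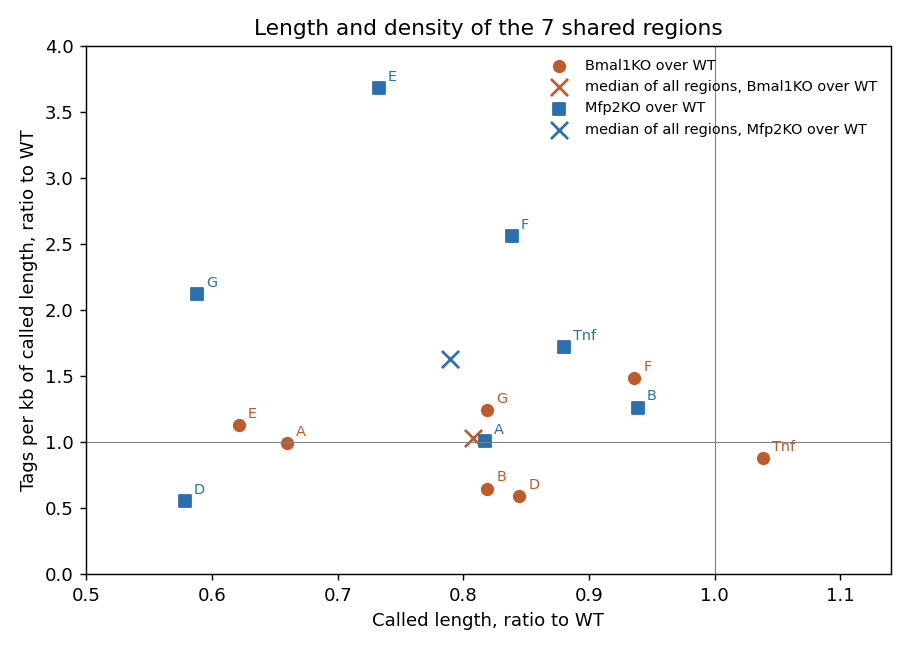
Called length (x axis) and tags per kb of called length (y axis) of the 7 regions as ratios to WT, with circles for Bmal1KO, squares for Mfp2KO and crosses for the medians of all regions. Squares are higher than circles for 6 of the 7 regions, and the Tnf domain in Bmal1KO is the only point to the right of a length ratio of 1.

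In Mfp2KO called length and density differed from WT in opposite ways, as did their medians over all regions. All 7 regions were shorter in Mfp2KO than in WT, by ratios of 0.579 in D to 0.939 in B, and 6 of the 7 had more tags per kb, from 1.01 in A to 3.68 in E. In Bmal1KO 6 of the 7 were shorter, the exception being the Tnf domain, and 3 of the 7 (E, F and G) had more tags per kb. The corresponding medians over all regions were 1.63 for tags per kb in Mfp2KO over WT and 1.03 in Bmal1KO over WT. For called length they were 0.789 and 0.808, so shorter regions were the more common over all regions too. On the scale of the ChIP tags, input pooled over locus peaks was 5.65 per kb in Bmal1KO, 8.75 in Mfp2KO and 6.82 in WT. Medians of input per kb over the single peaks of each list were 4.31, 5.61 and 3.99, which is an unlike measure. With input subtracted, density in the locus was 85.5 tags per kb in Bmal1KO, 150.2 in Mfp2KO and 77.9 in WT, and the tag ratio of the locus to WT was 0.870 in Bmal1KO and 1.54 in Mfp2KO.

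The nearest peaks outside the interval were set beside the widest gaps between peaks inside it. On the lower side the nearest peak ended 24437 bp away in Bmal1KO (35353066-35355563, 487 tags). It ended 19256 bp away in Mfp2KO (35360244-35360744, 9.51 tags) and 19815 bp away in WT (35359685-35360185, 7.6 tags). These lower peaks do not overlap one another, so their tags are not a comparison of genotypes at the same place. On the upper side the nearest peaks began 12458 bp away in Bmal1KO (38.3 tags), 11758 bp away in Mfp2KO (137.5 tags) and 11545 bp away in WT (114.9 tags). The widest gap inside the interval was 18614 bp in Bmal1KO, 10589 bp in Mfp2KO and 12401 bp in WT. In Bmal1KO and WT it was thus wider than the upper distance. The outermost members inside were regions A and G.

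Other regions had tag ratios close to those of the Tnf domain. Among 9651 regions called in every list with at least 100 WT tags, likeness was measured as the distance between pairs of log2 tag ratios to WT. The nearest regions were chr12:69492125-69496632 with 280 tags in Bmal1KO, 462 in Mfp2KO and 306.5 in WT, chr3:87425670-87437805 with 737, 1230 and 812 tags, and chr15:98498659-98501892 with 117, 195.5 and 129.5 tags. In all, 89 regions lay within a distance of 0.1. With 3 libraries this likeness says only that the tag ratios were close.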

How the data were processed

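The data are 3 peak lists, 1 per ChIP library, which the authors called with HOMER findPeaks (histone style), each against its own input, per the file headers. The limits over input were 4-fold and a p-value of 1e-04. Positions are mm39. The submitters' processing notes also name HOMER 5.1, MACS3 3.0.3, Picard 3.4.0, SAMtools 1.23, BWA 0.7.19-r1273 and fastp 1.0.1, with no stated role. Normalized tag counts are a deposited signal, in tags per 10 M of the library as the headers state. The deposited input tags are a signal too, scaled to the ChIP library in Bmal1KO only. The fold over input is the authors' deposited ratio after depth scaling. The deposited peak score only ranked WT peaks for an alternative.

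From these, peaks overlapping the interval by at least 1 bp were taken, and peaks of all lists that overlapped were joined into regions. Tags were converted back to whole library tags for exact Poisson intervals and exact conditional intervals of ratios. Input per kb is the normalized tag count divided by the deposited fold. Calculations used Python 3.11.15, pandas 2.3.3, numpy 2.4.6 and SciPy 1.17.1, and overlap and ratio functions were tested on simulated data. Groups came from the titles in the labels. Named regions are all peaks of the interval, and the 3 regions nearest to the Tnf domain in tag ratios. The locus, its interval and the comparisons were chosen with earlier results of these data known. Pathway genes and cell type markers, which need mm39 annotation, were not analysed here.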

Additional observations from a re-analysis of the deposited data

How the results depend on the processing

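Of 77 alternatives over 19 results, 49 stayed close to the reported value. Close meant inside the counting interval for tag ratios, and within fixed margins for called lengths, counts and shares. Some alternatives could not change the value, such as the limit of 8-fold over input for the Tnf domain, whose peaks all pass it. The tally is therefore not a measure of robustness. The alternatives with input subtracted from regions A and E, and those with whole regions within 10 kb of Tnf, were chosen after seeing the data. Division by the median used all shared regions with no minimum of tags, where the medians were 0.843 for Bmal1KO over WT, 1.35 for Mfp2KO over WT and 0.714 for Bmal1KO over Mfp2KO, so these values differ from those centred on regions with at least 20 tags. The locus ratio of tags to WT in Bmal1KO, 0.853 as reported, was 1.01 when divided by this median and 1.08 per kb of called sequence, so its direction depends on the scaling. It was 0.953 with the interval wider by 20 kb on each side and 0.643 within 10 kb of Tnf, where regions A, E, F and G and 1 of the 2 Bmal1KO peaks of region B are left out. With both peaks of B it was 0.737. In Mfp2KO the locus ratio to WT was 1.01 as a share of tags in peaks, 1.11 after division by the median, 1.88 per kb and 1.21 within 10 kb of Tnf, also with whole regions. For Bmal1KO over Mfp2KO, 0.570 as reported, it was 0.873 as a share of tags in peaks, 0.799 after division by the median, 0.619 with the wider interval and 0.533 within 10 kb of Tnf, or 0.611 with both Bmal1KO peaks of B. For the Tnf domain, the ratio to WT was 1.09 in Bmal1KO after division by the median, and in Mfp2KO 1.03 as a share of tags in peaks, 1.12 after division and 1.72 per kb. The domain lay below the medians of regions with at least 100 tags, 0.983 in Bmal1KO and 1.62 in Mfp2KO. So its direction relative to the median depends on the minimum of tags. With only WT peaks at 8-fold or more over input, 0 had no Bmal1KO peak and 0 had no Mfp2KO peak. After division by the median of regions with at least 20 tags, regions past 2-fold among all were 11.6% higher and 17.2% lower in Bmal1KO over WT, 18.3% higher and 25.7% lower in Mfp2KO over WT, where more were higher than lower before, and 12.6% higher and 17.5% lower in Bmal1KO over Mfp2KO. With at least 100 tags, 13.9% were lower in Bmal1KO and 10.7% in Mfp2KO relative to WT, and 1.65% were higher in Bmal1KO over Mfp2KO. The promoter window alternative was not run, since it needs mm39 annotation. No paired analysis was possible because each genotype has 1 ChIP library. With 1 library per genotype there is no spread between replicates, and a peak list holds no tags outside called regions.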
